A study of Homo sapiens with 6 samples.

Results

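MYC, its paralogs MYCN and MYCL, its partner MAX, the MAX-binding antagonists MXD1, MXI1 and MNT and 3 classic MYC target genes were examined in SW480 cells before and after the induction of KIAA1199. The 10 genes were chosen by name and read by their Ensembl identifiers, and all 10 were present among the 26445 probe sets of the arrays. The identifiers were those of MYC (ENSG00000136997_at), MYCN (ENSG00000134323_at), MYCL (ENSG00000116990_at), MAX (ENSG00000125952_at), MXD1 (ENSG00000059728_at), MXI1 (ENSG00000119950_at), MNT (ENSG00000070444_at), ODC1 (ENSG00000115758_at), NCL (ENSG00000115053_at) and NPM1 (ENSG00000181163_at). In the tests made here, none of the 10 passed the limits that the study used to select changed genes. MYC came closest in the limma fit. Of all probe sets, 5.83% passed them. With that share over all probe sets, a count of 0 among 10 genes says nothing particular about these genes. For 7 of them the 95% confidence interval of the change lay entirely below 1.2-fold in either direction, as it did for 23.8% of all probe sets, but this needed all 3 experiments, since the count was 0 when any one of them was left out.

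SW480 cells derive from a human colorectal carcinoma. All cells on the arrays belonged to Clone 13, a single clone that carried the tetracycline repressor vector pcDNA6TR and the untagged construct pT-Rex-DEST30-KIAA1199. These cells had been selected with blasticidin S and G418 and were grown in medium with Tet-system-approved serum. In each of 3 independent experiments, total RNA was extracted from cells kept with doxycycline for 48 h, labelled as 50 ng/ml, and from uninduced cells, so that each group comprised 3 GeneChip Human Exon 1.0 ST arrays. There were no arrays of cells that received doxycycline without carrying the construct, so effects of doxycycline and of KIAA1199 cannot be told apart. The paper cites earlier work in which such doses of doxycycline left array measurements of transcripts unaffected. In these cells this was not tested. The level of KIAA1199 itself and of epithelial marker genes was not analysed here, because the values name probe sets by Ensembl identifiers and the gene table used here does not pair these with symbols. In these bulk samples, a lower level per cell and fewer cells expressing a gene cannot be told apart.

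MYC is a transcription factor of the basic helix-loop-helix leucine zipper class that drives cell growth, ribosome production and metabolism. It binds DNA as a dimer with MAX, preferentially at the E-box, and MXD1, MXI1 and MNT compete for MAX and recruit repressor complexes to the same sites. In the intestinal epithelium MYC is a well known target of Wnt/beta-catenin signaling, which is constitutively active in SW480 cells because their APC protein is truncated.

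To show the E-box in these genes, promoter windows from 250 bases before to 50 bases after each RefSeq start (build GRCh38.p14) were searched for CACGTG, which reads the same on both strands. Windows were matched by symbol for 9 of the 10 genes, MYC being the other. Of their 14 windows, 2 held the motif, 1 of MNT and 1 of the 2 windows of ODC1, whereas 7.26% of all 35116 windows in the table held it. The looser form CANNTG, of which CACGTG is a special case, occurred in 6 of the 14 windows and in 68.7% of all windows. The 3 sites are shown with the E-box in capitals, 5′ to 3′ on the minus strand. The MNT site lay at chr17:2401236-2401265 with its E-box beginning 193 bases upstream of the start. The ODC1 sites lay at chr2:10448024-10448053 and chr2:10447990-10448019, both in the window chr2:10447963-10448262. Their E-boxes began 29 bases upstream of the RefSeq start of that window and at base 6 counted from that start. The labels upstream and downstream refer to this start only. The other ODC1 window, chr2:10448278-10448577, belongs to a start farther upstream on the minus strand.
MNT: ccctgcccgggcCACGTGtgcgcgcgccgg
ODC1, upstream: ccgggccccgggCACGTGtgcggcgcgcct
ODC1, downstream: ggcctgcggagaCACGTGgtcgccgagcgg

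Probe sets were tested with limma on the deposited log2 levels, with the experiment as a block. The study's limits were an unadjusted p under 0.025 together with a fold change of at least 1.2, which is 0.263 on the log2 scale. Of all probe sets, 5.83% passed these limits, 766 of them raised and 777 lowered by doxycycline. Of the 10 genes, 0 passed them, and 0 had an unadjusted p under 0.05, beside 12.3% of all probe sets. That last count became 1, MYC, with a variance prior that depends on the level (14.6% of all probe sets) and in the unblocked fit without the uninduced array of experiment 3 (10.8%), and 1, NCL, with the methods' t-test (10.4%), so that each count of 1 in 10 was near the share of all probe sets. At an adjusted p under 0.05 the count was 0 of 10 and 0% of all probe sets. The methods' t-test, paired over the experiments, also placed 0 of the 10 genes past the limits, beside 2.18% of all probe sets. The log2 fold change was above 0 for 7 genes and below 0 for 3. Its median absolute value was 0.036 over the 10 genes, against 0.10 over all probe sets. The SD of the 3 experiment-wise differences was similar in both, with a median of 0.13 over the 10 genes and 0.14 over all probe sets. A change of at least 1.2-fold, irrespective of p, was reached by 0 of the 10 genes and by 15.3% of the probe sets.

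**Figure D1:**
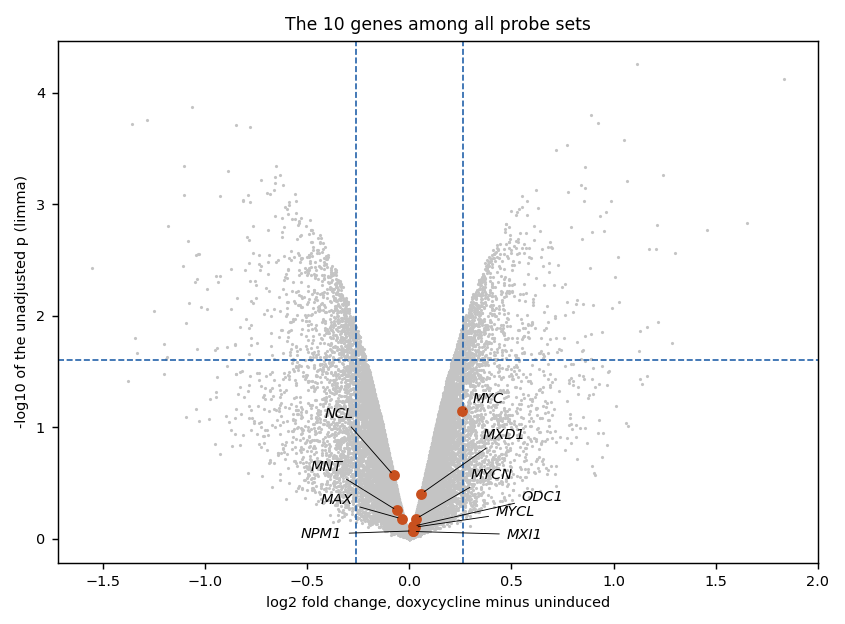
Log2 fold change (doxycycline minus uninduced, x axis) against the -log10 of the unadjusted p from limma (y axis) for all 26445 probe sets in grey and the 10 genes in orange, with dashed lines at a fold change of 1.2 and a p of 0.025. MYC, at a log2 fold change of 0.258, lies just left of the fold change line and below the p line, and the other 9 genes lie near 0.

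MYC itself had log2 levels of 7.76, 7.38 and 7.86 on the uninduced arrays of experiments 1, 2 and 3 and of 7.87, 7.88 and 8.01 on the doxycycline arrays. Its level was thus higher with doxycycline in 3 of 3 experiments, and all doxycycline arrays lay above all uninduced arrays, although by only 0.02 between the closest ones. The differences were 0.115, 0.50 and 0.16, and the large one came from the uninduced array of experiment 2, which stood 0.38 below the next array. The mean level was 7.66 ± 0.25 (SD, n = 3) without and 7.92 ± 0.08 (SD, n = 3) with doxycycline. This gave a log2 fold change of 0.258, or 1.196-fold, with a standard error of 0.106 and a 95% confidence interval from -0.04 to 0.55. In limma its unadjusted p was 0.071 and its adjusted p was 0.44. The methods' t-test gave MYC an unadjusted p of 0.17. The difference between groups was not distinguishable from the spread between arrays, and the interval reached from a slight fall to a 1.47-fold rise. Without experiment 2 the log2 fold change was 0.14, and without the uninduced array of that experiment alone it was 0.11. The exact permutation test over the 6 arrays gave a two-sided p of 0.1, the smallest that 3 arrays against 3 allow, and the exact sign-flip test over the 3 paired differences gave 0.25, likewise the smallest possible. In absolute value, 84.1% of the probe sets had a smaller log2 fold change than MYC.

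The paralogs of MYC showed only small differences. MYCN, known for its amplification in neuroblastoma, had log2 levels of 5.30, 5.12 and 5.27 without and 5.41, 5.17 and 5.21 with doxycycline. Its groups overlapped, and it was higher with doxycycline in 2 of 3 experiments. Its log2 fold change was 0.03, with an interval from -0.16 to 0.23 (limma adjusted p = 0.88). The mean level of MYCN on these arrays exceeded that of only 42.6% of the probe sets, and since the values carry no detection calls it could not be separated from background signal. MYCL, first described as amplified in small cell lung cancer, had levels of 6.03, 6.08 and 6.08 without and 5.89, 6.11 and 6.26 with doxycycline. The lowest and the highest MYCL level were both on doxycycline arrays, so that the SD was 0.19 in that group and 0.03 in the uninduced group. Its log2 fold change was 0.03, with an interval from -0.22 to 0.27 (limma adjusted p = 0.93). In the RefSeq annotation, each of these paralogs overlaps an antisense gene, MYCNOS and MYCL-AS1. MAX, MXD1, MXI1, ODC1 and NCL overlap other RefSeq genes as well. RefSeq also lists 3 pseudogenes named after MYCL and 2 named after NCL. Whether the probes separate any of these was not tested.

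MAX, the obligate partner of MYC and of its antagonists, had log2 levels of 8.27, 8.35 and 8.30 without and 8.38, 8.27 and 8.15 with doxycycline. Its doxycycline arrays contained both the highest and the lowest of the 6 values. The differences were 0.11, -0.08 and -0.14, and the log2 fold change was -0.04, with an interval from -0.26 to 0.19 (limma adjusted p = 0.88).

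**Figure D2:**
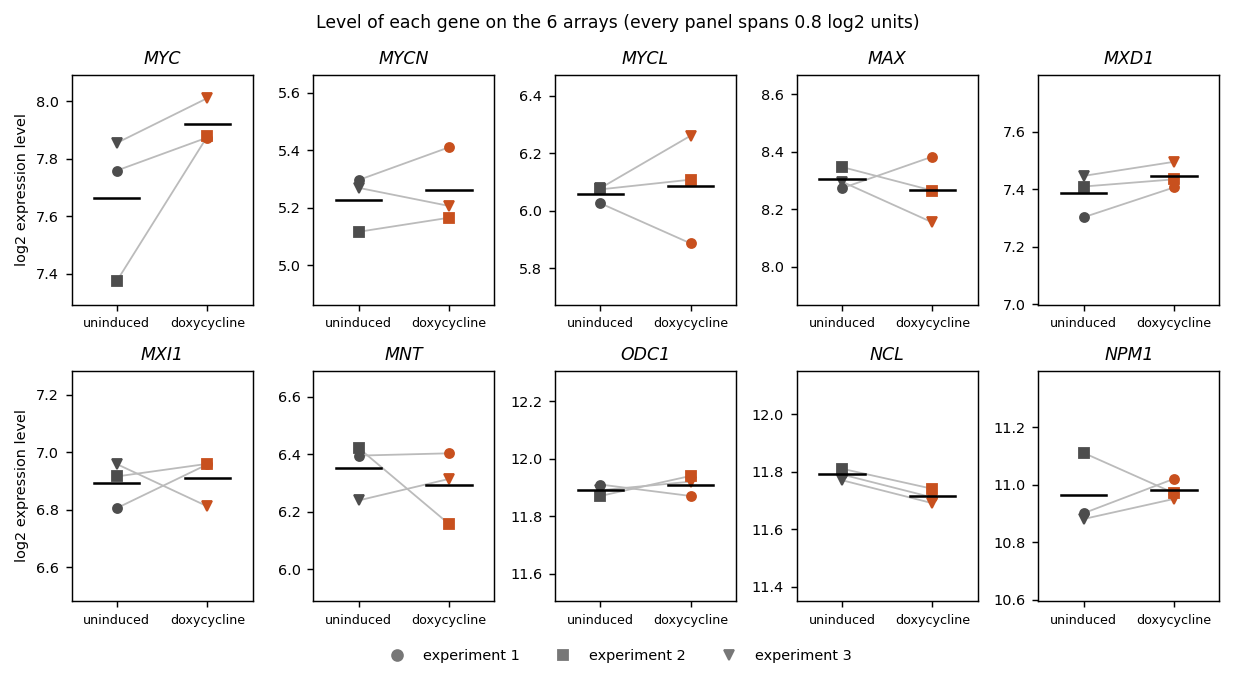
Log2 expression level (y axis) of each gene on the uninduced and doxycycline arrays (x axis), with a grey line joining the arrays of 1 experiment, the marker shape giving the experiment and a black bar at the mean of each group (n = 3). Every panel spans 0.8 log2 units; the groups are separated for MYC, where the uninduced array of experiment 2 is far below the others, and for NCL, where all arrays lie within 0.12.

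The MAX-binding antagonists of MYC showed no common direction. MXD1, which is induced in many cells as they stop dividing and differentiate, had log2 levels of 7.30, 7.41 and 7.45 without and 7.41, 7.43 and 7.495 with doxycycline. It was higher with doxycycline in 3 of 3 experiments, but by only 0.10, 0.03 and 0.05, and its groups overlapped. Its log2 fold change was 0.06, with an interval from -0.11 to 0.23 (limma adjusted p = 0.74). MXI1, a relative of MXD1, had levels of 6.81, 6.92 and 6.96 without and 6.96, 6.96 and 6.81 with doxycycline. For MXI1, therefore, the lowest level without doxycycline came from experiment 1 and the lowest with doxycycline from experiment 3, and the differences of 0.15, 0.04 and -0.15 nearly cancelled. Its log2 fold change was 0.02, with an interval from -0.22 to 0.26 (limma adjusted p = 0.96). MNT, which is expressed in dividing and resting cells alike and keeps MYC sites repressed, had levels of 6.40, 6.42 and 6.24 without and 6.40, 6.16 and 6.32 with doxycycline. The only difference of MNT over 0.1 in size was the -0.27 of experiment 2, while the others were 0.01 and 0.07. Its log2 fold change was -0.06, with an interval from -0.32 to 0.20 (limma adjusted p = 0.83), the widest interval among the 10 genes after that of MYC.

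The target genes had the brightest signals, with mean levels above those of at least 99.5% of the probe sets. ODC1 encodes ornithine decarboxylase, the rate-limiting enzyme of polyamine synthesis, and is a textbook target of MYC through its E-boxes. Its log2 levels were 11.91, 11.87 and 11.89 without and 11.87, 11.94 and 11.92 with doxycycline. All 6 ODC1 values lay within 0.07 of each other, and the groups overlapped. For ODC1 the log2 fold change was 0.02, with an interval from -0.16 to 0.20 (limma adjusted p = 0.93). The deposited values of 10 and above are given in steps of 0.01, so the smallest ODC1 difference, 0.03, was only a few steps. Whether such bright signals were compressed toward the upper end of the scale was not tested.

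NCL encodes nucleolin, an abundant nucleolar protein that takes part in ribosomal RNA transcription and ribosome assembly. Its log2 levels were 11.79, 11.81 and 11.77 without and 11.71, 11.74 and 11.69 with doxycycline. NCL was lower with doxycycline in 3 of 3 experiments, by 0.08, 0.07 and 0.08, and the groups did not overlap. Its fitted log2 fold change was -0.08, or 0.948-fold, with a standard error of 0.06 and an interval from -0.24 to 0.09 (limma unadjusted p = 0.27, adjusted p = 0.66). The 3 NCL differences had an SD of 0.006, which is less than the rounding step of the values. Without the fold change minimum, the methods' t-test, which uses only this SD, placed NCL alone among the 10 genes under its p limit, beside 5.46% of all probe sets. Limma, which pools the spread over all probe sets, did not. The exact permutation test over the 6 arrays gave a two-sided p of 0.1 and the exact sign-flip test over the pairs 0.25, both the smallest possible and the same as for MYC. MYC and NCL were the 2 genes of the 10 whose groups did not overlap, where 16.6% of all probe sets had groups that did not overlap. In RefSeq the small nucleolar RNA genes SNORA75, SNORD20 and SNORD82 lie within NCL.

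NPM1 encodes nucleophosmin, a nucleolar chaperone that acts in ribosome export and centrosome duplication. Its log2 levels were 10.90, 11.11 and 10.88 without and 11.02, 10.97 and 10.95 with doxycycline. The highest NPM1 value was that of the uninduced array of experiment 2, the same array that had the lowest MYC level. The doxycycline arrays lay within the range of the uninduced arrays, with differences of 0.12, -0.14 and 0.07. For NPM1 the log2 fold change was 0.02, with an interval from -0.21 to 0.24 (limma adjusted p = 0.95), so that ratios below 0.864-fold and above 1.18-fold lay outside it. The study's own list of changed genes includes NPM1, as lowered with doxycycline, which the fit here did not show. The fall given in that list was larger than the interval found here allows. That list was selected over Affymetrix transcript clusters, which group the probes differently from these Ensembl probe sets. Whether the grouping accounts for the difference was not tested. The calls given here need not be those of the study's list for any other gene either. RefSeq lists 50 pseudogenes named after NPM1, and the part of near-identical copies in its signal was not tested.

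**Figure D3:**
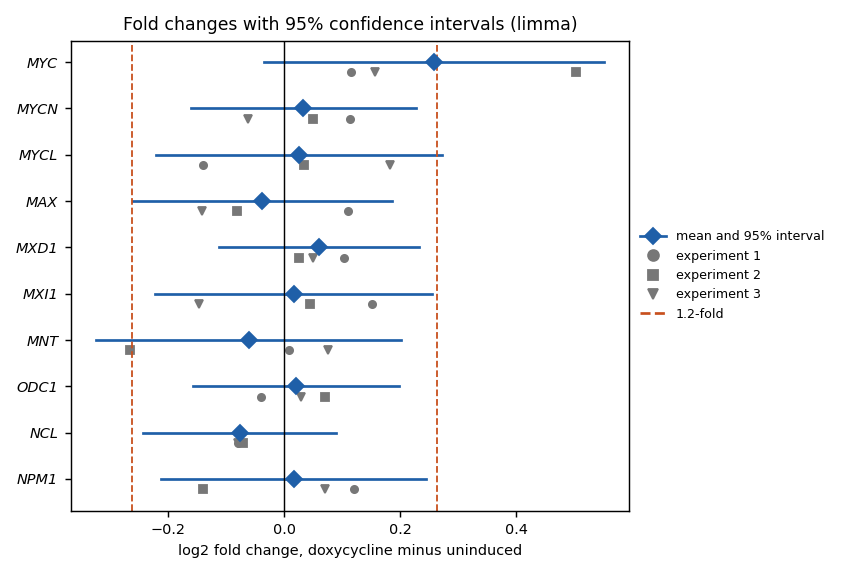
Log2 fold change of each gene (doxycycline minus uninduced, x axis) from limma as a diamond with its 95% confidence interval, and the differences of experiments 1 to 3 as grey markers just underneath (n = 3 per group). The dashed lines mark a fold change of 1.2 in either direction, and the intervals of MYC, MYCL and MNT cross one of them.

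The 95% intervals of MYCN, MAX, MXD1, MXI1, ODC1, NCL and NPM1 lay within 1.2-fold on both sides, as they did for 23.8% of all probe sets. MAX was inside by very little, its interval beginning at -0.261 where the limit is 0.263 in size. Without experiment 1, 2 or 3 the count was 0, beside at most 0.151% of all probe sets, and in fits without the block it was 6 with all arrays and between 2 and 5 with 1 array left out. The count of 7 thus rested on the number of arrays. The intervals of MYC and MYCL extended past a 1.2-fold rise and that of MNT past a 1.2-fold fall, so a change of that size remained within the error of these 3 genes with 3 arrays per group. The direction agreed over the 3 experiments for 3 of the 10 genes, MYC, MXD1 and NCL, and for 36.5% of all probe sets.

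Ranked by Pearson r over the 6 arrays, the genes closest to MYC among the other 9 were ODC1, with an r of 0.54 and a Spearman rho of 0.64, MYCN, with 0.45 and 0.09, and MXD1, with 0.38 and 0.60. By rho the order differed, with MYCL at 0.60 and MXI1 at 0.26 above MYCN. Without the arrays farthest from the median MYC level, uninduced from experiment 2 and doxycycline from experiment 3, r was -0.09 for both ODC1 and MYCN, 0.92 for MXD1 and 0.98 for MXI1, which had been at -0.11 over all 6. The order of likeness therefore rested on those arrays. NCL ran opposite to MYC, with an r of -0.83 and a rho of -0.94 over all 6 arrays, and an r of -0.80 without the same 2 arrays. These values describe 6 arrays that share experiments and groups.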

How the data were processed

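The authors deposited log2 expression levels for 6 Affymetrix GeneChip Human Exon 1.0 ST arrays, 1 value per Ensembl gene identifier and array, after RMA according to the submitters' processing notes. All arrays share the same distribution, with a median of 5.66, so a quantile normalization was part of the authors' processing; such scaling removes any change common to most genes. The annotation version and genome build are not given in the sources used here. Precision is set by the number of arrays.

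Arrays were grouped by their titles and induction labels. The treatment text of the uninduced samples also mentions doxycycline, and the level of the induced gene was not read here to check the groups. The study's own list gives KIAA1199 as higher with doxycycline than in the controls. The experiment number was used as a block because the study's test was paired. Every probe set was tested 2-sided with limma 3.58.1 in R 4.3.3 (lmFit, eBayes), and p-values were adjusted over all 26445 probe sets by the Benjamini-Hochberg method. The fits were tested on simulated data. Alternatives omitted the block, used the methods' t-test, changed the variance prior, normalization, filter or limits, or left out experiments or arrays. The members and lists were chosen with earlier results of these data known. All 10 members are named in the text, with the named genes most like MYC over the arrays. Wider lists of MYC pathway genes, the induced gene and cell type markers were drawn up by symbol but not analysed here, because the Ensembl column of the gene table is empty. Promoter windows are from RefSeq. Over all probe sets, the 2 arrays of an experiment deviated from their group means with a correlation of 0.039, 0.049 and 0.13 in experiments 1, 2 and 3. Arrays of different experiments gave correlations from -0.092 to 0.044. The values within experiments were thus small, and that of experiment 1 did not exceed the highest value between experiments.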

Additional observations from a re-analysis of the deposited data

How the results depend on the processing

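The count of genes past the study's limits was 0 of 10 with and without the replicate block, with the methods' t-test, with a variance prior that depends on the level or is robust, after a further quantile normalization, centring or removal of the level trend, without the dimmest 25% of probe sets, with a fold change minimum of 1.5 or none, and at an adjusted p under 0.05. With experiments or arrays left out it was 0. The methods' t-test with no fold change minimum, chosen after seeing the data, gave 1, NCL. Over all probe sets, the count past the limits was 1543 with the block, 1050 without it, 577 with the methods' t-test and 238 at a 1.5-fold minimum; it fell to 994 or 986 when experiment 2 or 3 was omitted. With no block, omitting 1 array gave 993, 696 and 1361 (uninduced 1, 2 and 3) and 997, 1332 and 770 (doxycycline 1, 2 and 3).

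The log2 fold change of MYC was above 0 in all 17 alternatives, from 0.11 to 0.35, with adjusted p between 0.33 and 0.87 (0.57 without the replicate block). MXD1 (0.02 to 0.09) and NCL (-0.09 to -0.06) also kept their direction in all 17. The other 7 genes turned sign in 1 to 5 alternatives each, in every case when an experiment or array was left out. Over these left-out fits, the log2 fold change ranged from -0.041 to 0.082 for MYCN, from -0.062 to 0.13 for MYCL, from -0.11 to 0.019 for MAX, from -0.052 to 0.098 for MXI1, from -0.13 to 0.042 for MNT, from -0.0050 to 0.050 for ODC1 and from -0.035 to 0.095 for NPM1. The count of genes whose groups do not overlap was 2 under the changed normalizations and filter, beside 16.6% to 18.7% of all probe sets, and between 2 and 5 with experiments or arrays left out, beside 23.0% to 40.7%. It was 5 without experiment 1 (40.7%) or only its doxycycline array (27.3%). The count of genes with a 95% interval within 1.2-fold, 7 with the block, was 6 to 8 where all arrays were kept (22.8% to 31.9% of all probe sets), and between 0 and 5 with experiments or arrays left out (0% to 18.8%). The count at an unadjusted p under 0.05 was 0 (12.3% of all probe sets), but 1 with the methods' t-test (NCL, 10.4%), 1 with the prior that depends on the level (MYC, 14.6%), and between 0 and 1 with experiments or arrays left out (5.60% to 10.8%). Alternatives for the wider gene lists were not run for lack of identifiers.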
